A study of Rattus norvegicus with 144 samples.

Results

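The clustered protocadherins were taken as the protein-coding rows of the deposited gene table whose symbol is Pcdha, Pcdhac, Pcdhb, Pcdhga, Pcdhgb or Pcdhgc followed by a number. The rule found 36 of 45785 rows, of which 1 belonged to the alpha cluster, 20 to the beta cluster and 15 to the gamma cluster. They were read in RNA sequencing of the anterior cingulate cortex, a midline frontal region, of Long Evans rats. A group was defined by sex, by the prenatal condition (ethanol, PAE, pair feeding, PF, or a free-choice liquid diet, FCL), by the adolescent condition (alcohol, AAE, or water, VEH) and by age. Adolescent brains were collected at postnatal day 42, a day after the last exposure, and adult brains at postnatal day 90 with no further challenge. The 24 groups held 4 to 7 libraries each, with 34 from adolescent females, 35 from adult females, 39 from adolescent males and 36 from adult males. The labels name no litter, and p-values therefore measure the spread between these libraries.

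Clustered protocadherins are cadherin-like proteins of the neuronal surface, encoded by 3 neighbouring gene arrays. In the alpha and gamma arrays each variable first exon has its own promoter and is spliced to constant exons shared by the whole array, whereas each beta gene is a single large exon with its own cytoplasmic end. Single neurons choose a few of the variable exons, with the help of CTCF, cohesin and DNA methylation, and isoforms on facing membranes bind like to like, which underlies self-avoidance of dendrites and the tiling of axons. The C-type members at the end of the alpha and gamma arrays are expressed more broadly than the chosen ones.

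Total counts ran from 10.6 to 34.4 M per library (median 14.0 M), and 15631 to 28008 rows had at least 1 count. All libraries came with 1 batch date. Markers of excitatory neurons summed to 3929 to 8082 CPM over the libraries (counts scaled to each library's total), those of inhibitory neurons to 561 to 957 CPM and those of astrocytes to 2302 to 4259 CPM. Oligodendrocyte markers had a wider range, from 2103 to 24177 CPM. Markers of neighbouring tissue also varied widely. Those of meninges ran from 15.6 to 2886 CPM, those of choroid plexus from 4.10 to 2089 CPM and those of striatum from 160.1 to 984 CPM. 5 libraries stood apart, by sex-linked genes, olfactory genes or few detected rows and not by the markers above. In 2 of them sex-linked genes went against the label (Female_PF_AAE_Adolescent replicate 4 and Male_PAE_VEH_Adolescent replicate 4), 2 held genes of the olfactory mucosa (Female_FCL_AAE_Adult replicate 1 and Male_PF_VEH_Adolescent replicate 6), and Female_PF_VEH_Adult replicate 6 had 15631 rows detected. All were kept, and members whose call changes without them are given both ways.

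All 36 rows lie on the plus strand of chromosome 18, at the coordinates of the rat assembly GRCr8. The single alpha row, Pcdha4, spans chr18:28688274-29120227 and stands for the whole array, since RefSeq files 15 alpha gene symbols and 22 transcripts under it. Its exons come to 110618 bases, so its value is a sum over the alpha isoforms and the choice between them cannot be read. The 20 beta rows lie between 29187848 and 29503142 and do not overlap each other. The protein-coding rows Pcdhb6l (mean count 204.8 per library) and Pcdhb16l (74.9) also lie there. They do not match the name rule and are not among the members or in the beta sum. The 15 gamma rows lie between 29738639 and 29919098, and each overlaps other gamma rows. 13 of them end together at the shared constant exons, near 29919095. Pcdhgc5 ends shortly before that, at 29917566, and Pcdhga4 far before it, at 29794877. How reads in the shared exons were given to one gamma row or another is not stated in the sources used here, so gamma values are uncertain to that extent. The libraries do not keep strand, and 3 long noncoding genes lie on the opposite strand within the alpha and gamma arrays, with mean counts of 2.03 to 6.66 per library.

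The beta and gamma promoters each share a short run of letters. Any link between these runs and the levels or covariation of members was not tested. RefSeq promoters on GRCr8, from 250 bases before to 50 after each start, were found for 32 of the 36 members, and not for Pcdhb11, Pcdhb17, Pcdhb22 and Pcdhgb7. The commonest run of 10 letters in the beta promoters was GGTGGCGCTG, present in 15 of 17 (not in Pcdhb1 and Pcdhb15), in 0 of 14 gamma promoters and, on either strand, in 0.221% of 33469 rat promoters. The commonest run of 7 letters in the gamma promoters, CGCTGTT, was present on the coding strand in 10 of 14. On either strand it was in 11 (not in Pcdhga1, Pcdhga4 and Pcdhgc5), in 1 beta promoter and in 1.98% of all promoters. The runs overlap in the letters CGCTG, and the Pcdha4 window, which covers 1 of the alpha starts, holds neither. Both runs were chosen from these promoters, so their frequency here is a description. The shared run is in capitals in the lines below, all on the plus strand. Only members with the run are printed, namely beta members that differed with age or did not and some of the gamma members described further on.
Pcdhb2 (chr18:29279923-29279952): aagaacgcagGGTGGCGCTGcagcctcaga
Pcdhb4 (chr18:29292211-29292240): aaggacgcttGGTGGCGCTGcaggctaagc
Pcdhb5 (chr18:29302404-29302433): atgaacgcagGGTGGCGCTGcaggctaaga
Pcdhb6 (chr18:29320152-29320181): tagtacacacGGTGGCGCTGcagtctaagg
Pcdhb7 (chr18:29328998-29329027): gtggacgcagGGTGGCGCTGcaggctaaga
Pcdhb9 (chr18:29379248-29379277): aaagacacagGGTGGCGCTGcaggctaaga
Pcdhga2 (chr18:29745088-29745114): ctctgagcgtCGCTGTTgaccacctaa
Pcdhga3 (chr18:29750320-29750346): ctctgggtgtCGCTGTTgaccacacaa
Pcdhga7 (chr18:29794210-29794236): ctctgcgtgcCGCTGTTcaccaaccat
Pcdhga10 (chr18:29825819-29825845): ctctgagcgcCGCTGTTcacctaccag
Pcdhga12 (chr18:29843867-29843893): ctctgagcgcCGCTGTTcacccacggg
Among the beta members printed, the run begins between positions -71 (Pcdhb2) and -46 (Pcdhb7) from the start in all but Pcdhb6, where it begins at -229. In the printed gamma members it begins between -97 (Pcdhga10) and -20 (Pcdhga12).

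Summed over its rows, the gamma array had the highest count, at 356 ± 36.3 CPM (SD over all libraries), against 233 ± 24.0 CPM for alpha and 159.2 ± 16.6 CPM for beta. These sums are of unlike kinds and do not rank the output of the arrays. The alpha sum is a single row, and the gamma sum depends on how reads in shared exons were counted. The beta sum leaves out Pcdhb6l and Pcdhb16l. The C-type pair, Pcdhgc3 and Pcdhgc5, made up most of the gamma count. Pcdhgc5 held 34.1% of the gamma counts on average (26.9% to 41% over libraries) and Pcdhgc3 held 27.1% (20.03% to 34.8%), while Pcdhga4 followed with 8.83%. In FPKM, the authors' value per length, Pcdhgc5 stood at 38.4 ± 4.69 (SD over all libraries) and Pcdhgc3 at 20.8 ± 3.34, and their ranges over libraries, 20.5 to 48.1 and 9.98 to 29.9, overlapped in part. The Pcdhgc5 row is 3139 bases long and the Pcdhgc3 row 4614, which makes their difference larger in FPKM than in counts. The lowest FPKM value of Pcdhgc5 lay above the highest of every member other than Pcdhgc3. The other 13 gamma rows had mean levels of 0.68 (Pcdhga5) to 3.04 FPKM (Pcdhga2), and neighbours in that order did not differ beyond their SD.

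The beta members covered the same range as the variable gamma members, with a few above it. Pcdhb5 at 6.58 ± 1.04 FPKM and Pcdhb9 at 6.46 ± 1.17 FPKM (SD over all libraries) were the highest and did not differ beyond their spread. Pcdhb19 (3.42 ± 0.56 FPKM) and Pcdhb14 (3.15 ± 0.65 FPKM) came next, and Pcdhb21 was low at 0.83 ± 0.28 FPKM. The level per length of Pcdha4, 2.10 ± 0.21 FPKM, is over 110618 bases of alternative exons and cannot be ranked with the others. Pcdhb1 was the lowest member. It was at 0 counts in 78.5% of the libraries, did not pass the filter on low counts and was left out of all tests. Its highest values, 26.2 CPM (357 counts) in Female_FCL_AAE_Adult replicate 1 and 10.1 CPM (241 counts) in Male_PF_VEH_Adolescent replicate 6, were in the libraries that hold olfactory genes, and in the libraries that did not stand apart it reached at most 1.44 CPM.

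**Figure D1:**
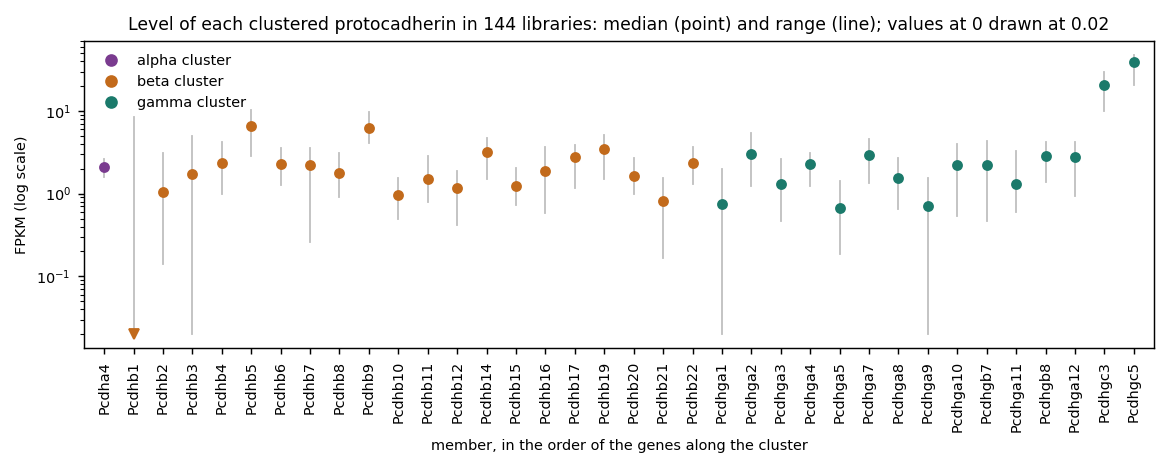
FPKM of the 36 members (log axis; point, median of all libraries; line, lowest to highest library; values at 0 drawn at 0.02), in order along the chromosome within the alpha, beta and gamma clusters. The medians of Pcdhgc3 and Pcdhgc5 stand above those of all other members, and the downward triangle marks Pcdhb1, whose median is 0. The lowest library of Pcdhgc3 (9.98) lies just below the highest of Pcdhb5 (10.2).

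Members differed widely in how far libraries of 1 group scattered. The measure is edgeR's biological coefficient of variation, the spread between libraries of a group beyond counting error, and its median over all 20137 tested genes was 20.5%. Pcdha4, the summed alpha row, was among the steadiest genes, at 8.44%. The 19 tested beta members ran from 14.7% (Pcdhb19) to 43.3% (Pcdhb2). The gamma members ran from 12.1% (Pcdhgc5) to 67.2% (Pcdhga1), and the value of Pcdhga1 was at or above that of 88.8% of tested genes. Pcdhga1 lay between 0 and 9.01 CPM with a median of 3.42 before scaling. Its low libraries occurred in all 4 combinations of sex and age, with lowest values after TMM scaling (a correction of library totals for their composition) of 0.075 CPM in adolescent females, 0 in adult females, 0.329 in adolescent males and 0.569 in adult males. Other rows of about the same count did not scatter as far, such as Pcdhga9, with a median of 48 counts as for Pcdhga1 and 32.1%.

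The library with few detected genes, Female_PF_VEH_Adult replicate 6, lay above all libraries that did not stand apart in 7 members, among them Pcdha4 (299 CPM against at most 286) and Pcdhga11 (15.6 CPM against at most 12.1). It lay below all of them in 9, with 0 counts of Pcdhb3, Pcdhga1 and Pcdhga9 and 46.8 CPM of Pcdhgc3 against at least 56.1. With 13.2 M counts, 3 counts would be 0.227 CPM, so the value of 0 allows up to that level, counting error only.

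Age was compared first, as adult against adolescent within each sex. In females 6 of the 35 tested members passed the test (17.1%), against 9.02% of all 20137 tested genes. Of the 6, 3 were higher in adults (4.81% of all genes were) and 3 lower (4.21% of all genes). In males 5 of 35 passed (14.3%), against 13.1% of all genes, with 1 higher (6.95% of all genes) and 4 lower (6.11%). With both sexes together 8 of 35 were called (22.9%), 3 higher and 5 lower, against 22.2% of all genes, 11.6% higher and 10.6% lower. Without the 5 libraries that stand apart 9 were called, the added one being Pcdhga5, named after its value was seen (log2 fold change 0.22 ± 0.08, edgeR adjusted p = 0.0366, against 0.0928 with all libraries). The share of members called in males and in both sexes was thus near that of genes at large. The beta and gamma arrays had a median log2 difference of 0.04 for beta and 0.04 for gamma in females and of -0.06 and -0.02 in males, beside medians within 0.01 of 0 over all genes.

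The alpha array fell with age in both sexes. Here and below CPM are scaled by TMM. Pcdha4 lay at 190.1, 246.6 and 287.1 CPM (lowest, median and highest) in adolescent females and at 188.6, 226.3 and 282.5 in adult females. In males it lay at 178.1, 243.6 and 278.8 CPM in adolescents and at 186.7, 214.1 and 256.0 in adults. The libraries of the 2 ages overlapped widely, and the adult mean was lower in all 6 exposure conditions of each sex. The log2 fold change was -0.13 ± 0.03 (SE) in females (edgeR quasi-likelihood test, adjusted p = 0.000684) and -0.15 ± 0.03 in males (adjusted p = 2.94e-05).

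Among the beta members Pcdhb22, the last gene of the array, fell most. It lay at 11.4, 16 and 19.2 CPM in adolescent females and at 7.94, 13.0 and 16.4 in adult females. In males it lay at 9.58, 16.1 and 22.6 CPM in adolescents and at 8.12, 13.4 and 19.5 in adults. Its log2 fold change was -0.31 ± 0.06 in females (edgeR, adjusted p = 6.37e-05) and -0.26 ± 0.06 in males (adjusted p = 0.000349), and the adult mean was lower in 6 of 6 conditions of each sex. The ages overlapped over most of their range.

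Other beta members rose with age, or passed in only some of the age comparisons. Pcdhb4 was higher in adult females, at 6.96 ± 1.68 CPM (SD, n = 35) against 5.73 ± 1.13 (n = 34), a log2 fold change of 0.28 ± 0.08 (edgeR, adjusted p = 0.0116). In males the Pcdhb4 difference was 0.14 ± 0.08 and did not pass (adjusted p = 0.247). Pcdhb9, which differed by 0.18 ± 0.06 in females, was close to the threshold (adjusted p = 0.0430, and 0.0675 without the 5 libraries that stand apart). Over both sexes together Pcdhb4 and Pcdhb9 were both called higher in adults. In males the adult mean of each was higher in 5 of 6 conditions. Pcdhb7 differed by -0.21 ± 0.08 in females (adjusted p = 0.069) and -0.13 ± 0.07 in males (0.289), and passed only in the comparison over both sexes (-0.17 ± 0.05, adjusted p = 0.0141). Of the 19 beta members 15 passed in no age comparison, including Pcdhb5, the highest of the array.

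In the gamma array Pcdhga4 rose and Pcdhgc5 fell in both sexes. Pcdhga4 lay at 16.8, 27.8 and 35.5 CPM in adolescent females and at 21.3, 33.7 and 42.2 in adult females. In males it lay at 17.5, 29.5 and 38.2 CPM in adolescents and at 17.8, 34.5 and 41 in adults. The ages overlapped, with the adult medians below the highest adolescent libraries. The log2 fold change was 0.26 ± 0.05 in females (edgeR, adjusted p = 9.13e-05) and 0.19 ± 0.05 in males (adjusted p = 0.00305), with the adult mean higher in 6 of 6 conditions of each sex. The Pcdhga4 row ends at 29794877, before the shared constant exons, and is 13593 bases long.

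The C-type members differed from each other. Pcdhgc5 lay at 97.7, 128.9 and 151.1 CPM in adolescent females, at 64.5, 115.7 and 146.4 in adult females, at 86.1, 127.6 and 145.5 in adolescent males and at 65.4, 114.7 and 140.3 in adult males. The log2 fold change of Pcdhgc5 was -0.15 ± 0.04 in females (edgeR, adjusted p = 0.0136) and -0.16 ± 0.04 in males (adjusted p = 0.0043). Pcdhgc3 did not pass in either sex, at 0.04 ± 0.06 in females (adjusted p = 0.734) and -0.10 ± 0.06 in males (adjusted p = 0.277). Pcdhga3 fell in males, from 6.68 ± 1.72 (SD, n = 39) to 5.15 ± 1.43 CPM (n = 36), a log2 fold change of -0.35 ± 0.09 (adjusted p = 0.00284). In females Pcdhga3 differed by -0.16 ± 0.09 (adjusted p = 0.321), with the adult mean lower in 5 of 6 conditions. Over both sexes together Pcdhga3 was called lower in adults.

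**Figure D2:**
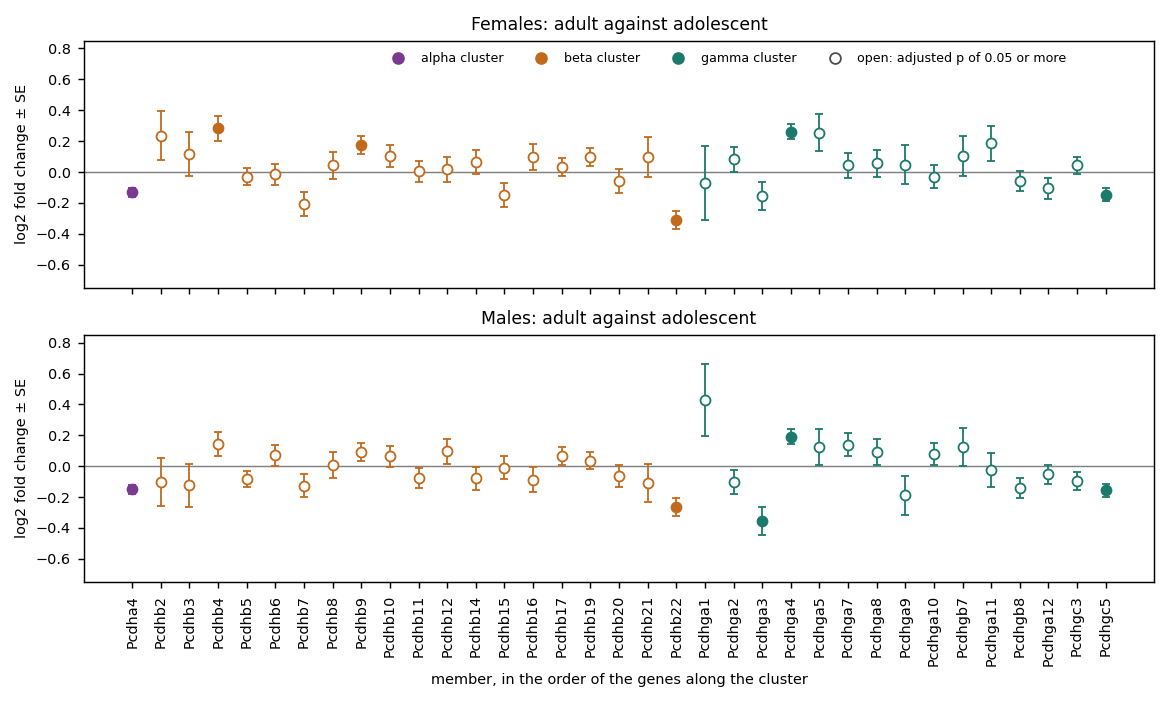
Adult against adolescent log2 fold change ± SE of the 35 tested members in females (35 against 34 libraries) and males (36 against 39), in chromosomal order and coloured by cluster; filled points passed the test. Pcdha4, Pcdhb22, Pcdhga4 and Pcdhgc5 are filled in both sexes, and most members lie near 0.

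**Figure D3:**
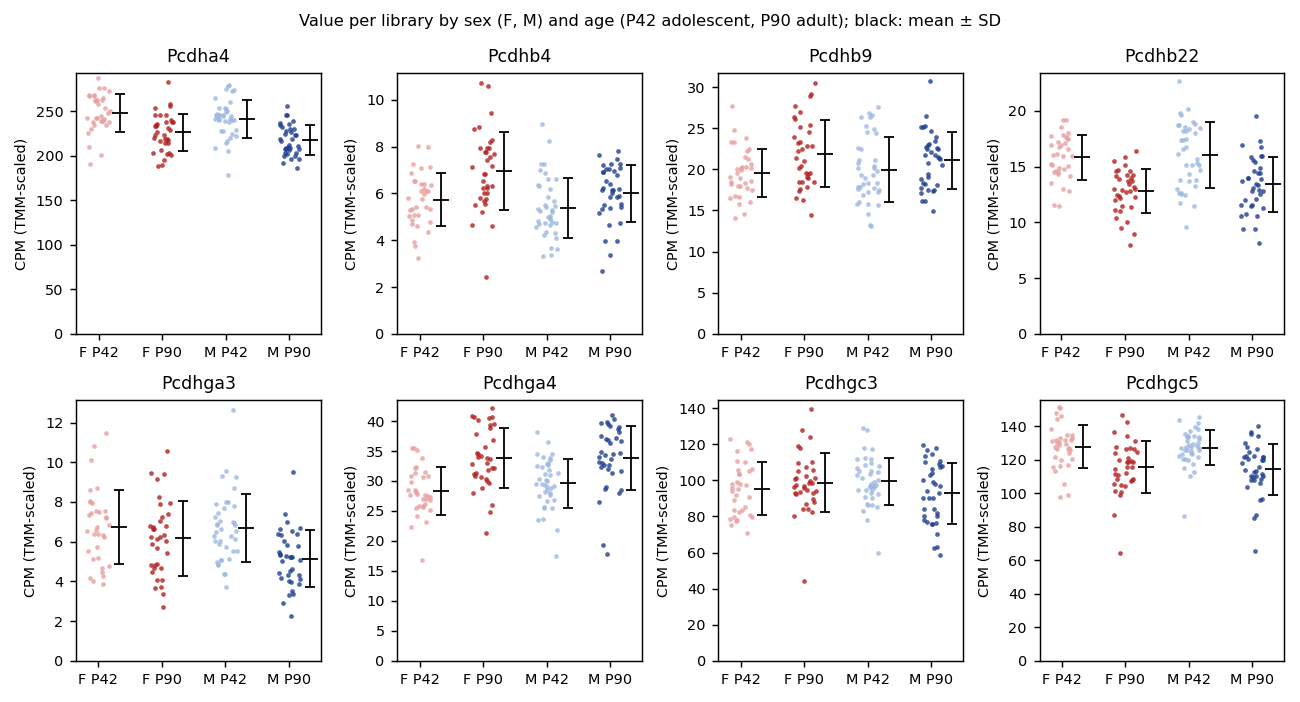
TMM-scaled CPM per library of the 7 members called in females or males and of Pcdhgc3, by sex and age, with mean ± SD in black. The ages overlap for every gene, and the lowest point of Pcdhgc3 and Pcdhgc5 in adult females is Female_PF_VEH_Adult replicate 6.

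The difference between the sexes in the age effect was tested as an interaction, and 0 members and 0 of 20137 genes (0%) were called. None of the 35 members had an unadjusted p under 0.05, beside 5.28% of all genes, and DESeq2 also called 0 members. Pcdhga3 passed in males but not in females, and Pcdhb4 in females but not in males. Both were called with both sexes together. Their interactions were 0.20 ± 0.13 for Pcdhga3 (edgeR, adjusted p = 0.966) and 0.14 ± 0.11 for Pcdhb4 (adjusted p = 0.976). Markers of other cell types were read beside the 9.02% (females) and 13.1% (males) of all genes called. Of the red blood cell markers 3 of 4 were called lower in adult females and 4 of 4 in adult males, with median log2 differences of -1.58 and -1.49. In males 4 of 7 oligodendrocyte markers, 3 of 5 markers of their precursors, 3 of 5 endothelial markers and 2 of 6 microglial markers were lower in adults, with 3 of 7 inhibitory neuron markers and 2 of 7 astrocyte markers higher. In females 2 of 5 precursor markers were lower, 2 of 7 astrocyte markers were higher and 0 of 7 oligodendrocyte markers were called. The summed oligodendrocyte markers ranged from 2983 to 24177 CPM in adolescent males and from 2103 to 16756 CPM in adult males. In bulk tissue fewer cells of a type and less RNA per cell cannot be told apart, and the part of these markers in the member differences was not tested.

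Genes that govern promoter choice in the arrays, and genes that act below the proteins, were read from lists chosen for this family. Of 25 tested regulators 2 were higher and 3 lower in adult females, and 2 were higher and 4 lower in adult males, beside the 9.02% and 13.1% of all genes called in the 2 sexes, shares that hold for the lists below as well. Tet1, which oxidises methylated cytosine, fell by 0.31 on the log2 scale in females (edgeR, adjusted p = 2.44e-05) and by 0.43 in males (adjusted p = 5.44e-10). Dnmt3a, a de novo DNA methyltransferase, fell by 0.28 in females (adjusted p = 7.53e-08) and by 0.30 in males (adjusted p = 1.11e-09), and Tet3 was called lower in both sexes. Ctcf, the insulator protein that joins promoters to enhancers, differed by 0.11 ± 0.03 in females (adjusted p = 0.0062) and by 0.04 ± 0.03 in males (adjusted p = 0.319). Of 26 effectors 3 were higher and 4 lower in each sex. Ptk2b, the kinase Pyk2 that protocadherins inhibit, rose by 0.19 ± 0.03 in females (adjusted p = 1.27e-05) and by 0.28 ± 0.03 in males (adjusted p = 3.09e-12), while Ctnnb1, which encodes beta-catenin, fell by 0.22 and 0.17. Of the 12 protocadherins and related genes outside the arrays 1 was called in females and 2 in males, all lower, and Pcdh15 was lower in both. Of 14 classical cadherins 2 were lower in females and 1 in males, with Cdh8 lower in both.

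Females and males were compared within each age and over both. No member was called in any of these comparisons, beside 0.119% of all genes in adolescents, 0.0844% in adults and 0.119% over both ages. With no adjustment, 2, 8 and 9 of the 35 members had p under 0.05, against 5.91%, 4.73% and 5.25% of all genes, and DESeq2 called 0 members in each. Pcdhb6 had the smallest p over both ages. It lay at 4.92, 8.11 and 12.2 CPM in adolescent females and at 4.27, 7.06 and 9.85 in adolescent males, and at 5.06, 8.11 and 11.5 in adult females and 4.35, 7.16 and 10.3 in adult males. The groups overlapped over most of their range, and the log2 difference, female over male, was 0.18 ± 0.05 (edgeR, adjusted p = 0.149). Over both ages 16 of 19 beta members lay on the female side and 6 of 15 gamma members did, beside 50.2% of all genes. The medians were 0.05 and -0.01 beside 0.00 over all genes. Members were correlated between libraries, as given further on, so these signs are not independent of each other.

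Prenatal ethanol was set against each control over all sexes, ages and adolescent conditions. The 2 comparisons share the 44 PAE libraries. No member passed in either, beside 0.0149% of all genes in each. The member nearest the threshold in both was Pcdhga12, the last variable gene before the C-types. It lay at 7.45, 14.7 and 20.2 CPM (lowest, median and highest) in 44 PAE libraries, at 4.22, 12.8 and 16.6 in 50 PF libraries and at 8.04, 12.4 and 18.9 in 50 FCL libraries. The PAE libraries reached higher than either control, and the groups overlapped. The PAE mean was above the FCL mean by more than 0.01 CPM in 7 of the 8 combinations of sex, age and adolescent condition and equal to it in adolescent males given alcohol. It was above the PF mean in 7 of them, the exception being adult males given alcohol.

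Against FCL the Pcdhga12 log2 difference was 0.25 ± 0.06 (edgeR, adjusted p = 0.0756), and against PF it was 0.21 ± 0.06 (adjusted p = 0.199). The call against FCL depended on the setting. DESeq2 gave an adjusted p of 0.0195 and edgeR without the 5 libraries that stand apart gave 0.00571, while RLE scaling gave 0.0854. In the authors' deposited table the same gene had an adjusted p of 0.0255 for the ethanol against FCL comparison and a log2 fold change of 0.25, and it was the only member called there in any comparison other than age. Against PF, the authors' deposited table gave 0.368. Pcdhga12 had 59 to 517 counts per library.

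**Figure D4:**
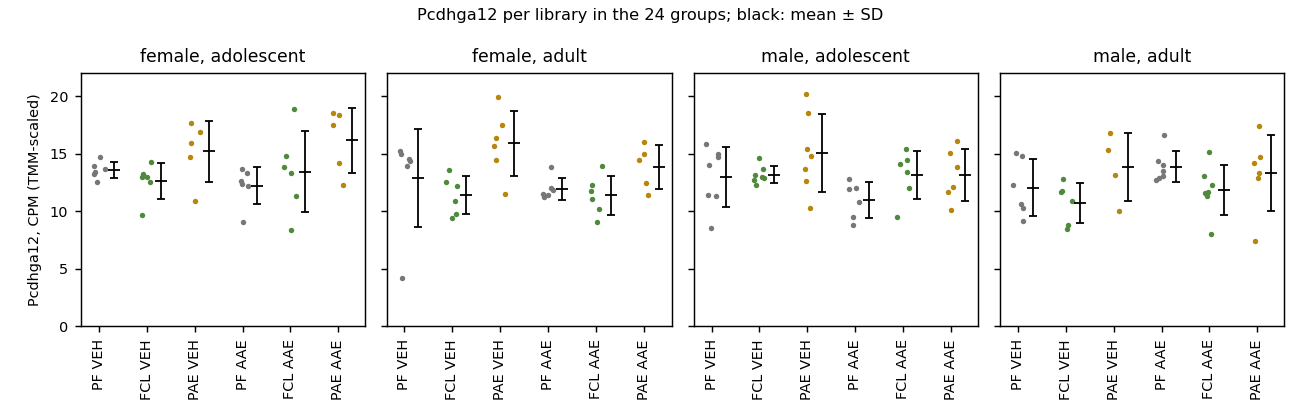
Pcdhga12 in TMM-scaled CPM per library (points) with mean ± SD (black) in the 24 groups, by sex and age (panels) and by prenatal and adolescent condition. PAE groups lie above the FCL group of the same panel and adolescent condition in 7 of 8 pairs of means, with the pair of adolescent males given alcohol level, and the low PF VEH point in adult females, 4.22 CPM, is Female_PF_VEH_Adult replicate 6.

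Other members with small unadjusted p in these comparisons pointed in both directions. Pcdhb17 was at 12.8 ± 2.34 CPM in PAE (SD, n = 44) and 14.5 ± 2.21 in PF (n = 50), a log2 difference of -0.19 ± 0.05 (edgeR, adjusted p = 0.274). Pcdhga4 was at 29.2 ± 5.19 CPM in PAE, 32.4 ± 4.96 in PF and 32.4 ± 4.99 in FCL, with log2 differences of -0.15 ± 0.04 against both (adjusted p = 0.342 and 0.459). Pcdhb3 was at 5.75 ± 2.33 CPM in PAE, 4.58 ± 1.86 in PF and 4.35 ± 1.46 in FCL (adjusted p = 0.566 and 0.525). None of these passed. In all, 6 of 35 members had an unadjusted p under 0.05 against PF and 7 against FCL, beside 7.61% and 5.29% of all genes. PF against FCL gave 0 calls among all 20137 genes (0%), and 1 of 35 members had an unadjusted p under 0.05, beside 4.05% of all genes. Adolescent alcohol against water gave no call among members and 0.00497% among all genes. With no adjustment 3 of 35 members had p under 0.05, beside 7.57% of all genes. The first of them was Pcdha4 at 229 ± 22.4 against 238 ± 23.6 CPM (n = 72 each, log2 difference -0.05 ± 0.02, edgeR, adjusted p = 0.538).

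Within each sex and age, 24 comparisons of prenatal and adolescent exposure and of their combination were made, and 0 members and 0 genes (0%) were called by edgeR in any of them. DESeq2 called 0 members. Of the 840 member tests 47 had an unadjusted p under 0.05, which is 5.60%, beside 4.91% of the tests of all genes. The smallest adjusted p was 0.5004, in adult females between PAE and PF. There Pcdhga3 lay at 5.01 ± 1.35 CPM in PAE (SD, n = 11) and 7.71 ± 1.73 in PF (n = 12), and Pcdhga10 at 12.3 ± 2.34 and 8.27 ± 2.33. The log2 differences were -0.60 ± 0.16 and 0.55 ± 0.15. Without the 5 libraries that stand apart they were -0.56 ± 0.15 and 0.46 ± 0.11, with an adjusted p of 0.208 for both. In this comparison 6 of 15 gamma members and 0 of 19 beta members had an unadjusted p under 0.05, beside 5.26% of all genes, and without the 5 libraries 6 gamma and 2 beta members did. Of the 6 gamma members 5 were common to both. Gamma members were correlated with each other between libraries, as given further on, so the 6 are not independent of each other. Pcdhga3 differed the other way between the same conditions in adolescent males, by 0.36 ± 0.13 (adjusted p = 0.986). The 4 interactions of sex with an exposure, within each age, called 0 members and 0 of all genes (0%), and DESeq2 called 0 members. In these, 1 to 5 of 35 members had an unadjusted p under 0.05, beside 2.99% to 5.25% of all genes.

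Members also varied together between libraries of the same group. Log2(CPM + 0.5) values had their group means removed, and all 595 pairs of the 35 tested members were correlated over all libraries, with p-values from 100000 permutations within groups adjusted over the 595 pairs. The median Pearson r was 0.20 over all pairs, 0.20 within beta, 0.28 within gamma, 0.18 between beta and gamma, 0.30 between alpha and beta and 0.21 between alpha and gamma. Over all pairs of the 20137 tested genes the median was 0.03, and 17.4% of those pairs had an r at or above the members' median. In 272 pairs r was positive with an adjusted p under 0.05, and in 7 it was negative. In 212 pairs Spearman's rho passed as well. All points of a pair share the library, its total and, for gamma rows, constant exons, so pairs are not independent of each other. The part of tissue content in these correlations was not tested.

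Within gamma, 4 members were positively correlated with each other and, in part, negatively with the rest, Pcdhga1, Pcdhga7, Pcdhga10 and Pcdhgb7, a block named after its values had been seen. Pcdhga1 and Pcdhgb7 had r = 0.70 and rho = 0.68 (permutation test, adjusted p = 0.000117 and 0.000175, the smallest the permutations could give), and r was 0.70 without the 2 libraries farthest in Pcdhga1 and 0.71 without the 5 libraries that stand apart. It was 0.79 in adolescent females, 0.56 in adult females, 0.80 in adolescent males and 0.53 in adult males. Pcdhga1 and Pcdhga7 had r = 0.64 and rho = 0.66, and Pcdhga7 and Pcdhgb7 had r = 0.66 and rho = 0.62, with the same adjusted p. Pcdhga10 and Pcdhgb7 are neighbouring rows, while Pcdhga2 to Pcdhga5 lie between Pcdhga1 and Pcdhga7.

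The 7 negative pairs were all within gamma and each held a member of that block. Pcdhga1 was low where Pcdhga2 was high (r = -0.48, rho = -0.46) and where Pcdhga11 was high (r = -0.47, rho = -0.43; permutation test, adjusted p = 0.000117 and 0.000175 for each). Without the 2 farthest libraries r was -0.48 and -0.46. The sign was the same in each of the 4 sets of sex and age, from -0.32 to -0.59 for Pcdhga2 and from -0.34 to -0.59 for Pcdhga11. Pcdhga1 with Pcdhga3 and Pcdhga8, Pcdhgb7 and Pcdhga10 with Pcdhga11, and Pcdhga7 with Pcdhga9 made up the rest, at r of -0.23 to -0.34.

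**Figure D5:**
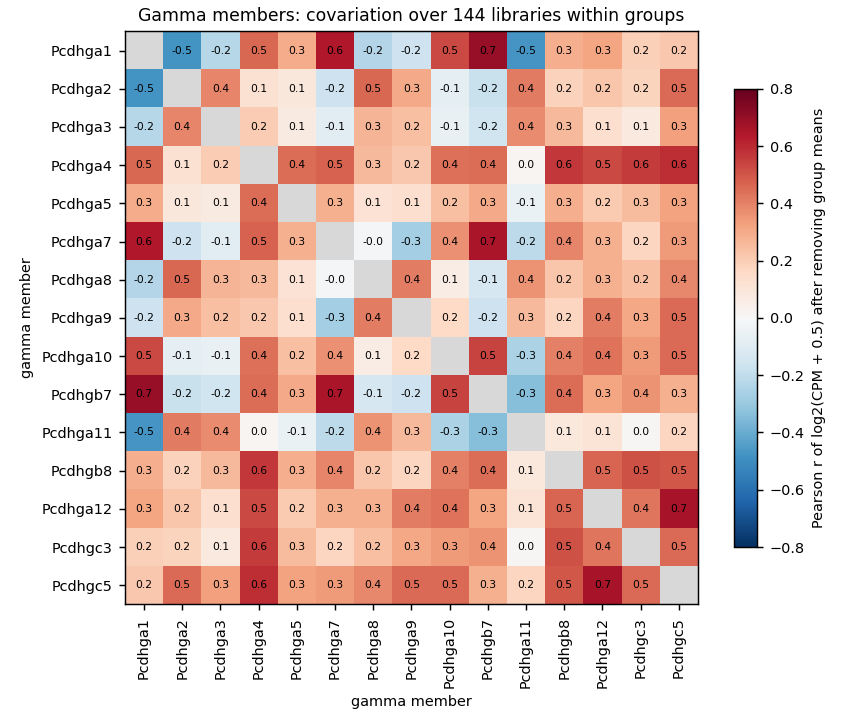
Pearson r between the 15 gamma members over all libraries after removal of group means (colour and number in each cell; grey, a gene with itself). Pcdhga1, Pcdhga7, Pcdhga10 and Pcdhgb7 are positive with each other and mostly negative with Pcdhga2, Pcdhga3 and Pcdhga11, while Pcdhga4, Pcdhgb8, Pcdhga12, Pcdhgc3 and Pcdhgc5 are positive with nearly all.

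Beta members and the arrays' ends held other close pairs. Pcdhb2 and Pcdhb9 had r = 0.70 and rho = 0.65 (permutation test, adjusted p = 0.000117 and 0.000175), with r = 0.71 without the 2 farthest libraries and 0.51 to 0.81 within the 4 sets. Pcdhga12 and Pcdhgc5 had r = 0.66 and rho = 0.48, and r was 0.55 without the 2 farthest libraries. Pcdha4 followed Pcdhgc5 with r = 0.49 and rho = 0.60. Some pairs rested on few libraries. Pcdhb3 and Pcdhb7 had r = 0.51 but 0.33 without the 2 farthest and 0.26 without the 5 libraries that stand apart, where both had been at or near 0 in Female_PF_VEH_Adult replicate 6. The C-type pair Pcdhgc3 and Pcdhgc5 had r = 0.45 (adjusted p = 0.000435) and rho = 0.17, which did not pass (adjusted p = 0.120).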

How the data were processed

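RNA sequencing of all libraries was analysed from the authors' deposited gene table. Per the file headers it holds whole-number counts and FPKM per library. The authors' comparisons in the deposited table give a log2 fold change and a p-value with an adjusted p-value. Per the submitters' processing notes fastp and HISAT2 2.0.5 were used. The sources used here name no counter and no build, and the coordinates of all 36 members equal GRCr8. Per the labels' protocols the RNA is total RNA, primed with random hexamers, without strand.

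Tests on counts ran in edgeR 4.0.16 under R 4.3.3 (filterByExpr with a minimum count of 10, TMM, glmQLFit, glmQLFTest), with Benjamini-Hochberg adjustment over all genes tested and calls at an adjusted p under 0.05. Age and sex comparisons, and exposures over both, used 1 model over every library, in which each of the 24 groups weighed the same, and the 24 exposure comparisons used 1 fit per sex and age. The SE is the absolute log2 fold change over the square root of F. FPKM served for levels only. Intervals of counting error were given only for counts of 0, where 3 counts set the limit. Other low counts, such as 6 for Pcdhb2 and 8 for Pcdhb21 in their lowest libraries, carry counting error as well. Groups of values were examined with Dixon's test. Alternatives were DESeq2 1.42.0, RLE scaling, no low-count filter, 5 libraries left out, single libraries of the groups of 4 or 5 left out, and other sets of groups. The pipeline was tested on simulated data.

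The members and lists were chosen with earlier results of these data known. Named are the C-type members, the highest and lowest member of each array, called members, and otherwise the member with the smallest p, with up to 3 called genes per direction from the other lists. 1 gene of those lists is not reported here by name. Pairs of libraries within a group numbered 366, of which 0 were identical. Marker lists of mural cells (0 and 2 of 6 called lower in females and males), meninges (0 and 1 of 6), choroid plexus (0 of 6 in either sex), striatum (1 of 6 higher in each), olfactory mucosa (0 and 1 of 5), serotonin neurons (1 tested gene, called lower in females) and red blood cells (3 and 4 of 4 lower), and of excitatory neurons (1 of 10 lower in females, 0 in males), were read as well.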

Additional observations from a re-analysis of the deposited data

Results flagged for a closer look

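In the summed CPM of an array, 9 values from 7 libraries lay far from the rest of their group, out of 72 groups of values examined, where chance flags about 1 in 20.

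For gamma, Male_PAE_AAE_Adult replicate 4 was at 199 CPM (the others of its group at 318 to 381), Male_FCL_AAE_Adult replicate 6 at 231 (334 to 391), Female_PF_VEH_Adult replicate 6 at 234 (351 to 374) and Male_PF_AAE_Adolescent replicate 1 at 238 (365 to 409). For beta, Male_PF_AAE_Adolescent replicate 1 was at 109.2 CPM (154.3 to 169.9) and Male_FCL_VEH_Adult replicate 6 at 181.9 (134.6 to 151.5). For alpha, Female_PF_VEH_Adult replicate 6 was at 299 CPM (221 to 244), Male_FCL_AAE_Adolescent replicate 4 at 201 (233 to 248) and Female_FCL_VEH_Adolescent replicate 4 at 244 (262 to 269). Of these libraries, Female_PF_VEH_Adult replicate 6 is among the 5 that stand apart.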

How the results depend on the processing

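The number of members called was the same or within 1.5 times of the reported one under RLE scaling and without the low-count filter in all 39 comparisons. With only the PF VEH and FCL VEH groups, which leaves fewer libraries, 0 members were called with age in females and 1 in males. For PAE against FCL over all libraries 1 member, Pcdhga12, was called by DESeq2 and 1 without the 5 libraries that stand apart. With single libraries left out the count ran from 0 to 1 there, reaching 1 without Female_PAE_AAE_Adolescent replicate 4, Female_PAE_VEH_Adolescent replicate 2 or Male_PAE_VEH_Adult replicate 3; the cause was not tested.

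Pcdhb9 in females passed in 11 of 19 such fits and was lost without Female_PAE_AAE_Adolescent replicates 2 or 3, Female_PAE_AAE_Adult replicates 2, 4 or 5 or Female_PAE_VEH_Adolescent replicates 2, 3 or 5. No member's difference changed sign with its call under any alternative run. Libraries of groups of 6 or 7 were not left out singly. All 19 libraries left out singly were therefore PAE, and the dependence on single PF or FCL libraries was not tested. No paired analysis was possible because the labels give replicates no numbers that are shared between groups. Rows that scatter widely between libraries, such as Pcdhga1, have wide errors, and how shared gamma exons were counted limits all gamma values.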
